A study of Homo sapiens with 9 samples.

Results

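Genes that clear organelles from maturing red cells were examined for H3K4me3, the histone mark of active promoters, after loss of the m6A RNA methyltransferase. These 10 genes, out of 20163 protein-coding genes in the annotation, form a list by name: FOXO3, ULK1, ATG5, ATG7, MAP1LC3B, GABARAPL2, BNIP3L, BNIP3, TRIM58 and XPO7. The cells were HEL, an established human erythroleukemia line, and the mark was mapped by CUT&RUN, in which an antibody brings a nuclease to the modified nucleosomes and the released DNA is sequenced. The non-targeting control (NTC) group held 3 libraries from cells given a guide RNA without a genomic target, and the METTL3-KO, METTL14-KO and WTAP-KO groups held 2 libraries each from cells in which the named methyltransferase subunit was targeted by CRISPR. The cells of all 4 groups carried a lentiviral CRISPR vector and were bulk populations, and the labels do not say whether the libraries of a group came from separate cultures, so the p-values below measure the spread between these libraries. H3K4me3 at the targeted genes does not check the knockouts, and no protein or RNA was measured in these lists.

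An erythroblast becomes a red cell by expelling its nucleus and then removing its mitochondria and ribosomes. Mitochondria are enclosed by autophagosomes, whose membrane grows after a kinase complex signals and a ubiquitin-like conjugation system attaches ATG8 proteins to lipid. Receptors in the outer mitochondrial membrane bind those ATG8 proteins and so pick the cargo, and BNIP3L, also called NIX, is the receptor best known from reticulocytes.

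Each library was a list of peaks with a position on hg19 and a signal that the authors calibrated to a yeast spike-in. For every gene the largest peak within 1 kb of any annotated start was taken as its level, and a gene with such a peak is called marked. The lists held 21724 to 21941 peaks in the NTC group, 9205 and 9369 in METTL3-KO, 3169 and 5286 in METTL14-KO, and 3160 and 3673 in WTAP-KO, and the lowest value in any list lay between 30.1 and 32.0. No list held a peak narrower than 150 bp or wider than 2000 bp, so a broad domain may be missing from a list, and a gene without a peak is a gene where no stretch entered the list. The values came in steps, which were 1.14 to 1.32 signal units in NTC, 0.461 and 1.07 in METTL3-KO, 0.416 and 0.440 in METTL14-KO, and 0.320 and 0.407 in WTAP-KO. The lowest listed value was therefore 24 to 28 steps in the NTC lists and 30 to 94 in the KO lists. That scale moves with the groups, and its part in the differences below was examined only by dividing the values by the step. Of 9 erythroid marker genes, GATA1, KLF1, TAL1 and EPOR were marked in all 3 NTC libraries while HBG1 and ALAS2 were marked in none.

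Of the 10 genes, 9 were marked in all 3 NTC libraries, as were 42.1% of all coding genes. For all 9 each KO library lay below each NTC library or had no peak. The same held for 8219 of the 8495 coding genes marked in all 3 NTC libraries. The number of marked members was 9 in each NTC library, 5 in each METTL3-KO library, 1 and 2 in the METTL14-KO libraries and 3 in each WTAP-KO library. Widening the window to 5 kb left these counts as they were. BNIP3, MAP1LC3B, TRIM58 and XPO7 had no peak in any KO library, which makes 4 of 9 beside 45.8% of the 8495 coding genes marked in all 3 NTC libraries. FOXO3 was the 1 member with a peak in all 6 KO libraries, a state held by 7.83% of those 8495 genes. By KO group, 4 of 9 marked members had no peak in METTL3-KO, 7 of 9 had none in METTL14-KO and 6 of 9 had none in WTAP-KO, where the shares over the 8495 genes were 46.3%, 73.3% and 84.9%.

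**Figure D1:**
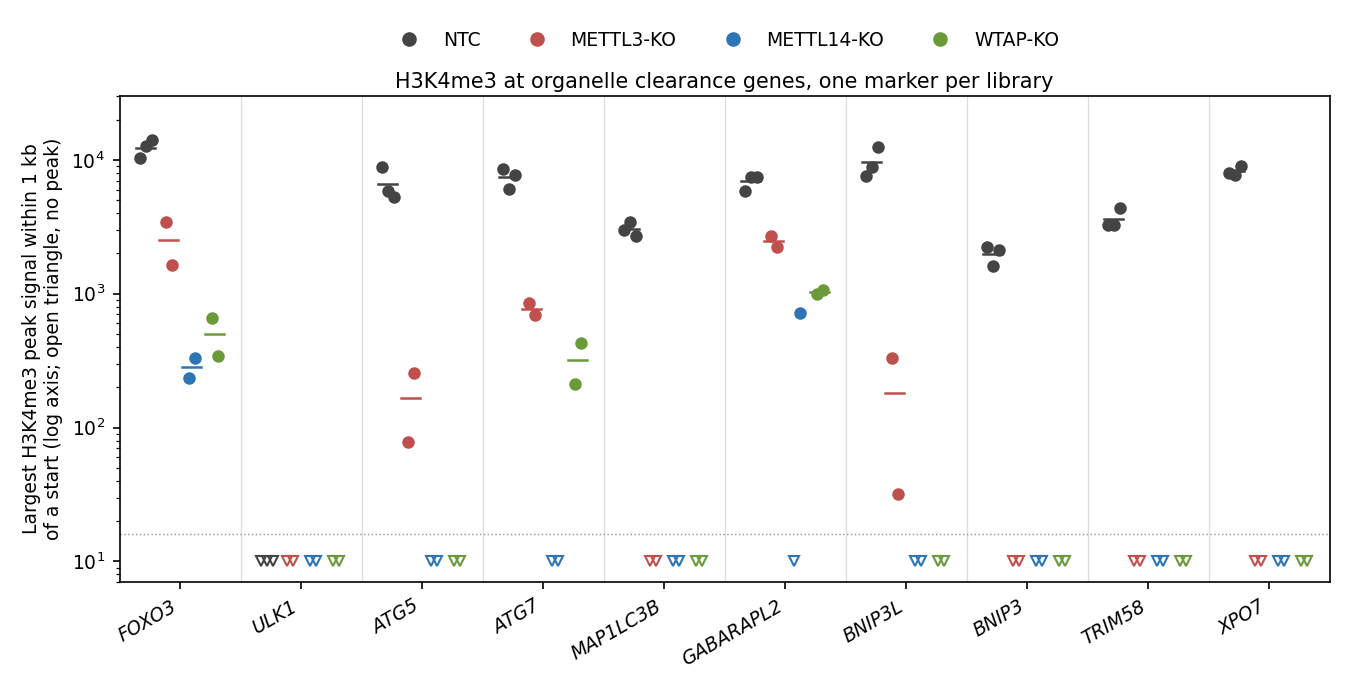
Largest H3K4me3 peak signal within 1 kb of a start (log axis) for the 10 genes, with 1 marker per library, 3 for NTC and 2 for each KO group; short lines are means of groups in which every library had a peak, and open triangles below the dotted line are libraries without a peak. The 9 marked genes sit between 1624 and 14032 in NTC, FOXO3 has a filled marker in all 6 KO libraries, and ULK1 has only triangles.

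The levels were compared with limma on log2(signal + 30.1), over the 12037 coding genes with a peak in at least 2 libraries. Taking the 3 KO groups together, 9 of 9 tested members were lower (adjusted p below 0.05), where 73% of all tested genes were lower. In METTL3-KO 8 of 9 were lower beside 60.9% of tested genes, in METTL14-KO 9 of 9 beside 68.8%, and in WTAP-KO 8 of 9 beside 69.7%. These shares are not like for like. All 9 members were marked in every NTC library, while the tested genes include genes that entered through KO peaks. BNIP3, MAP1LC3B, TRIM58 and XPO7 entered these counts through their NTC peaks alone, so they could only come out lower, and no test is given for them. The other 5 tested members, FOXO3, GABARAPL2, ATG7, ATG5 and BNIP3L, had a peak in at least 2 KO libraries. Of these 5, 5 were lower for all KO groups together, 4 in METTL3-KO, 5 in METTL14-KO and 4 in WTAP-KO, beside 53%, 37.2%, 51.6% and 53.2% of the 6429 tested genes with a peak in at least 2 KO libraries. These shares are not like for like either. The 5 members were marked in every NTC library, while the 6429 genes were chosen by KO peaks alone. They include genes without an NTC peak, which could only come out higher. ATG5 and BNIP3L had no peak in METTL14-KO or WTAP-KO, and ATG7 had none in METTL14-KO. In those contrasts they too could only come out lower. All 6 KO libraries lay below all 3 NTC libraries for each of the 9 members and for 68.3% of tested genes. Only the 8495 coding genes marked in all 3 NTC libraries could meet this condition. Of them 8219 did, so it does not set the members apart. The 3 KO contrasts share the same NTC libraries. In bulk cells, fewer marked cells and less mark per cell cannot be told apart. Where a group had no peak, the fitted change depends on the added constant, and it is a value on this scale and not a fold.

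FOXO3, a forkhead transcription factor that activates autophagy genes in erythroblasts, was the member whose mark was retained most widely. Its largest peak had a signal of 10279, 12701 and 14032 in the NTC libraries, 3427 and 1630 in METTL3-KO, 236 and 333 in METTL14-KO, and 660 and 342 in WTAP-KO. No KO value reached an NTC value, and both METTL3-KO libraries lay above the other 4 KO libraries. The METTL3-KO mean was 20.5% of the NTC mean of 12337 ± 1903 (SD, n = 3), the METTL14-KO mean 2.31% and the WTAP-KO mean 4.06%. Among genes with a peak in all NTC libraries and in both libraries of a KO group, the middle of this share was 16.2% in METTL3-KO, 11.1% in METTL14-KO and 7.92% in WTAP-KO, and the FOXO3 mean lay above the first of these and below the others. The METTL3-KO libraries fell on both sides of that median, replicate 1 at 27.8% of the NTC mean and replicate 2 at 13.2%. The log2 changes were -2.36 (SE 0.47, adjusted p = 0.0038), -5.30 (SE 0.47, adjusted p = 5.69e-05) and -4.60 (SE 0.47, adjusted p = 0.000117) by limma. The METTL3-KO change was -2.89 without METTL3-KO replicate 1 and -1.83 without METTL3-KO replicate 2. It was not called once values were divided by the step (-1.53, adjusted p = 0.133) or centred on genes marked in all 9 libraries (-0.57, adjusted p = 0.406), and the WTAP-KO change was not called after centring (-0.92, adjusted p = 0.176).

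The retained FOXO3 peak did not lie over the canonical start of the gene (chromosome 6, plus strand, gene 108881038 to 109005977, canonical start 108882120). In NTC it ran from 2815 to 1393 bp upstream of that start, ending 311 bp before the outermost annotated start, and a long noncoding RNA, ENSG00000287044, also starts within 1 kb of it. A second NTC peak, over the outermost start, had a signal of 4492 in NTC replicate 1 and 7407 in NTC replicate 3, was missing from the list of NTC replicate 2 and had no peak in any KO library. Both METTL3-KO libraries had a further peak in the gene body, 1814 to 2193 bp downstream of the canonical start, with a signal of 1872 and 206, where none of the 3 NTC lists held a peak. The stretch shared by the retained peak of all 9 libraries was 162 bp long, chr6:108879916-108880077, outside any annotated exon. Its plus strand is shown because it is the only stretch near a member that was marked in every library, with CpG sites in capitals.
FOXO3 shared stretch: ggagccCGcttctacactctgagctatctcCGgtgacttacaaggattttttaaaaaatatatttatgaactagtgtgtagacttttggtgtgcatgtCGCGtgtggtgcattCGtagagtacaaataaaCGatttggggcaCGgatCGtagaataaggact
The stretch held 8 CpG sites at a GC content of 42.0%, and none of the motif letters described below.

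ULK1, the kinase that starts autophagosome formation, gave no value. Its 7 annotated starts had no peak within 5 kb in any of the 9 lists (chromosome 12, plus strand, gene 132379167 to 132407695). The nearest NTC peaks lay 8.51 to 8.99 kb from a start with signals of 63.9 to 480, and the nearest KO peaks lay more than 1 Mb away. ULK1 was not tested, and its missing peak says nothing of a difference between groups.

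ATG5 and ATG7 belong to the conjugation system, ATG7 as the activating enzyme and ATG5 as part of the complex that attaches ATG8 proteins to lipid. ATG5 (chromosome 6, minus strand, 106493298 to 106773666) had a signal of 8852, 5810 and 5311 in NTC and of 78.3 and 255 in METTL3-KO, and no peak in METTL14-KO or WTAP-KO. Its METTL3-KO mean was 2.50% of the NTC mean, under the lower quartile of 9.93% for genes that kept a peak in that group, and the log2 change was -5.21 (SE 0.44, adjusted p = 5.07e-05). ATG7 (chromosome 3, plus strand, 11313995 to 11599139) had a signal of 8482, 6065 and 7682 in NTC, 855 and 694 in METTL3-KO, and 212 and 428 in WTAP-KO, with no peak in METTL14-KO. The ATG7 values fell into 3 separate ranges, with NTC above METTL3-KO and METTL3-KO above WTAP-KO in every library. The METTL3-KO and WTAP-KO means were 10.5% and 4.32% of the NTC mean, and the log2 changes were -3.20 (SE 0.39, adjusted p = 0.000343) and -4.47 (SE 0.39, adjusted p = 5.17e-05). After centring the WTAP-KO change of ATG7 was not called (-0.79, adjusted p = 0.149). The ATG7 peaks that remained lay just downstream of the canonical start, and the largest peaks of all 7 marked libraries shared 173 bp there.

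MAP1LC3B and GABARAPL2 encode ATG8 proteins, the lipid-anchored proteins to which cargo receptors bind. MAP1LC3B (chromosome 16, plus strand, 87417559 to 87438385) had a signal of 2980, 3413 and 2702 in NTC and no peak in any of the 6 KO libraries. Its largest NTC peak within 1 kb lay 658 to 1358 bp downstream of the canonical start, and FBXO31, another coding gene, also has a start within 1 kb of that peak. GABARAPL2 (chromosome 16, plus strand, 75600273 to 75611779) had a signal of 5838, 7484 and 7420 in NTC, 2681 and 2240 in METTL3-KO, 0 (no peak) and 711 in METTL14-KO, and 1000 and 1073 in WTAP-KO. Every KO value of GABARAPL2 lay below every NTC value, and METTL14-KO replicate 1 was the only library without a peak.

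The METTL3-KO mean of GABARAPL2 was 35.6% of the NTC mean of 6914 ± 932 (SD, n = 3) and the WTAP-KO mean was 15.0%, both above the upper quartiles of 25.0% and 12.7% for genes that kept a peak in those groups. The log2 change was -3.23 for all KO groups together (SE 0.96, adjusted p = 0.0179) and -5.53 in METTL14-KO (SE 1.24, adjusted p = 0.00573). It did not pass the threshold in METTL3-KO (-1.48, SE 1.24, adjusted p = 0.308) or WTAP-KO (-2.69, SE 1.24, adjusted p = 0.0889). The size of the change turned on the METTL14-KO libraries: without METTL14-KO replicate 1, which had no peak, it was -2.46 for all KO groups and -3.22 in METTL14-KO, and without METTL14-KO replicate 2 it was -4.00 and -7.84. The missing calls in METTL3-KO and WTAP-KO turned on the same libraries, which entered the shared spread. Without METTL14-KO replicate 1 the same changes had adjusted p = 0.00197 and adjusted p = 0.000126, and without METTL14-KO replicate 2 they had adjusted p = 0.0028 and adjusted p = 0.000184. The call for all KO groups was lost after division by the step (-2.11, adjusted p = 0.174), with the constant at 0.1 times (-3.81, adjusted p = 0.0668), and without NTC replicate 2 (-3.17, adjusted p = 0.0565) or NTC replicate 3 (-3.18, adjusted p = 0.0568). After centring on the genes marked in all 9 libraries neither call was left (-0.39, adjusted p = 0.753 for all KO groups and -2.47, adjusted p = 0.151 in METTL14-KO), and the direction turned in METTL3-KO (0.31, adjusted p = 0.858) and WTAP-KO (0.98, adjusted p = 0.557). The peak spanned the start in NTC, from 621 bp upstream to 48 bp downstream, and the 8 marked libraries shared the 215 bp of chr16:75599956-75600170, which lie upstream of every annotated exon of the gene and within ENSG00000259992, another annotated gene, but outside its exons. The plus strand is shown, as the promoter stretch of a member on which 5 of 6 KO libraries kept a peak, with CpG sites in capitals.
GABARAPL2 shared stretch: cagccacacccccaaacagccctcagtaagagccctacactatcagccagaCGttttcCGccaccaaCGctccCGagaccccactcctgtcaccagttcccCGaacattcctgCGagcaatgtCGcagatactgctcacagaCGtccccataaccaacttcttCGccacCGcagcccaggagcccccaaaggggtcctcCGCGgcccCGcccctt
The stretch held 13 CpG sites at a GC content of 61.9%, and CCNCNCCC matched 2 times.

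BNIP3 and BNIP3L, the paired mitophagy receptors, had no peak or only weak peaks in the KO libraries. BNIP3 (chromosome 10, minus strand, 133781188 to 133795471) had a signal of 2233, 1624 and 2133 in NTC and no peak in any KO library. Its NTC values lay around the median of all NTC peaks, 2095, and were the lowest of the 9 marked members. The NTC peak lay 514 to 1253 bp downstream of the canonical start, and a long noncoding RNA, ENSG00000273521, starts within 1 kb of it. The 200 bp before its outermost start, chr10:133795472-133795671, are shown on the minus strand, as the most CpG-rich promoter among the members, with CpG sites in capitals.
BNIP3 promoter: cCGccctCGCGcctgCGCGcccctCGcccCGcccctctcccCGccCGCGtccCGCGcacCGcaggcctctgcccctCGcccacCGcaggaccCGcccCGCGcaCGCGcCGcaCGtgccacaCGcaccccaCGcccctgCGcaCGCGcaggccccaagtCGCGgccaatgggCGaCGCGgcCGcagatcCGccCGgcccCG
This stretch held 36 CpG sites at a GC content of 83.0%.

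BNIP3L (chromosome 8, plus strand), the receptor described above, had a largest signal of 7589, 8861 and 12445 in NTC and of 328 and 32.0 in METTL3-KO, with no peak in METTL14-KO or WTAP-KO. The value of METTL3-KO replicate 2 was the lowest that its list held, and the METTL3-KO mean was 1.87% of the NTC mean. The log2 change in METTL3-KO was -5.99 (SE 0.70, adjusted p = 0.000276). BNIP3L carried 3 NTC peaks within 1 kb of its starts in each library, of which the strongest lay at an internal start, 7275 to 9158 bp downstream of the canonical start, where no KO library had a peak. The METTL3-KO peaks lay over the canonical start, where NTC had a signal of 5648, 4242 and 5412, so the loss at that peak alone was from a mean of 5101 ± 753 (SD, n = 3). A transcribed pseudogene, SDAD1P1, also starts within 1 kb of that peak.

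**Figure D2:**
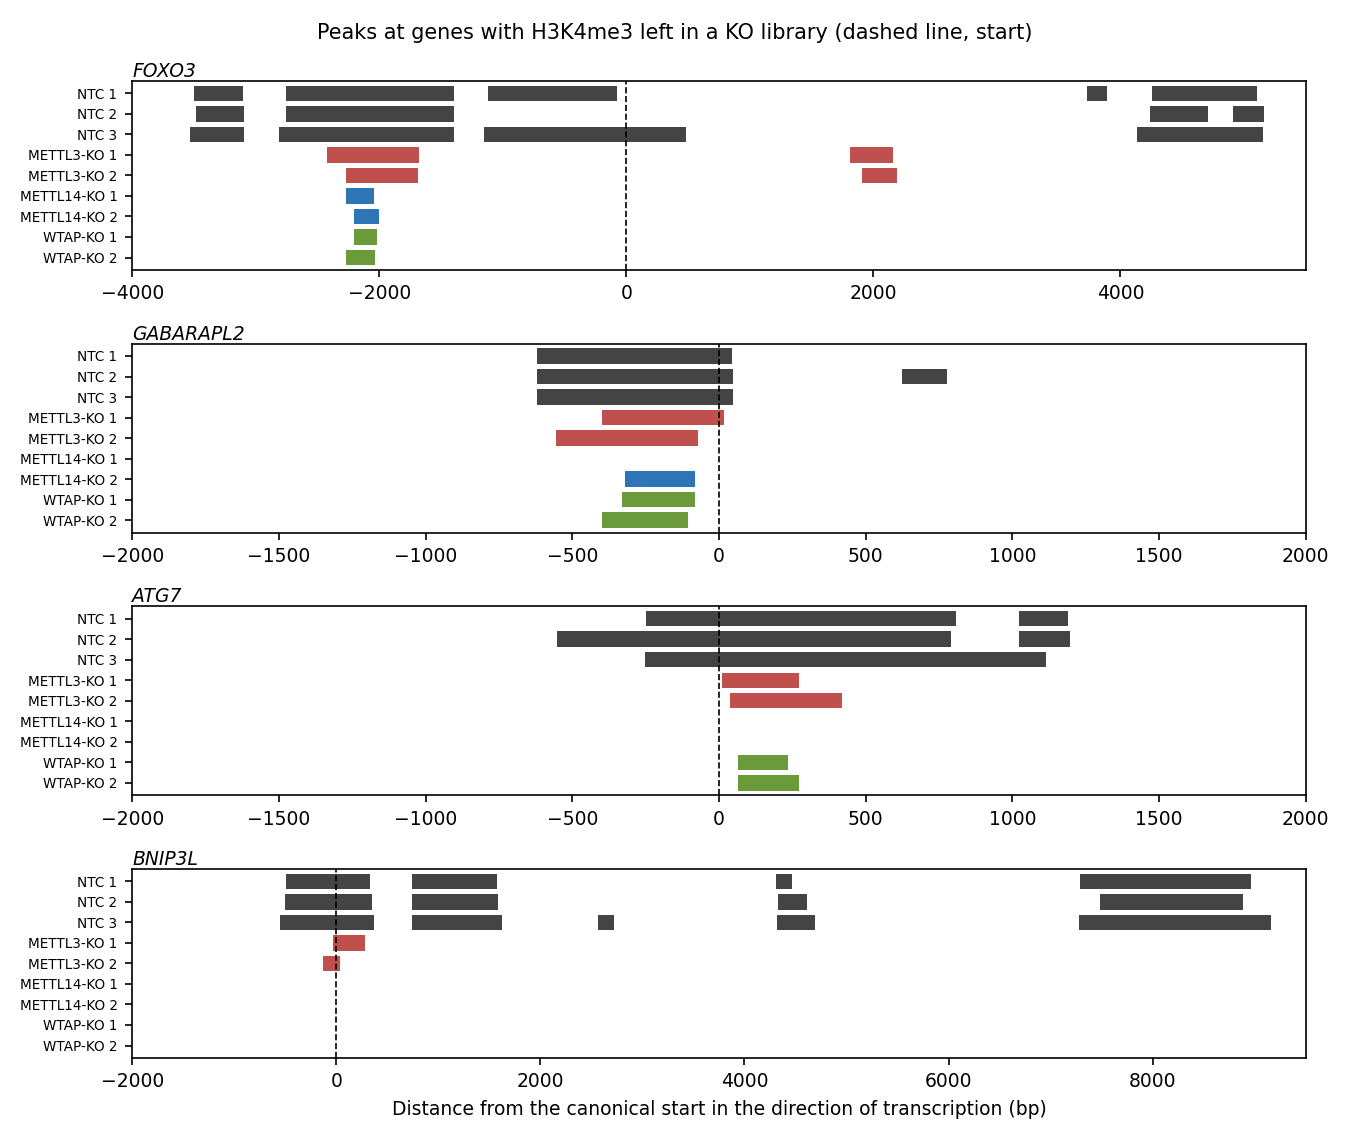
Peaks near 4 genes with a peak in at least 1 KO library, 1 row per library, plotted by distance (bp) from the canonical start in the direction of transcription; bars are peak spans within 5 kb of any start and do not show signal. The KO bars of the retained peaks lie inside the NTC bars, and the METTL3-KO bars near 2000 bp in FOXO3 have no NTC bar beside them.

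TRIM58 and XPO7 act on the nucleus. TRIM58, a ubiquitin ligase that removes dynein before the nucleus is expelled (chromosome 1, plus strand, 248020489 to 248043440), had a signal of 3276, 3285 and 4363 in NTC and no peak in any KO library. Its NTC peak lay 585 to 1653 bp downstream of its start. The 200 bp before that start, chr1:248020289-248020488, are shown on the plus strand, as the promoter with the fewest CpG sites among the members, which are in capitals.
TRIM58 promoter: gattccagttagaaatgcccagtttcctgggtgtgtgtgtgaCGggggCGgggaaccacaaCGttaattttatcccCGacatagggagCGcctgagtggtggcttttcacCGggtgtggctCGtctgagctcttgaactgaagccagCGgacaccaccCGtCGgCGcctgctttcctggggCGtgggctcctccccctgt
This stretch held 12 CpG sites at a GC content of 60%, and CCNCNCCC matched 5 times.

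XPO7 (chromosome 8, plus strand), a nuclear exporter needed for nuclear condensation, had a signal of 7935, 7757 and 8987 in NTC and no peak in any KO library. It had 3 separate NTC peaks, 1412 to 106 bp upstream and 548 to 1203 bp and 2188 to 2978 bp downstream of its canonical start, each present in all 3 NTC libraries. The 9 NTC peaks of XPO7 had signals between 2528 and 8987, and none of the 3 sites had a peak after any knockout.

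**Figure D3:**
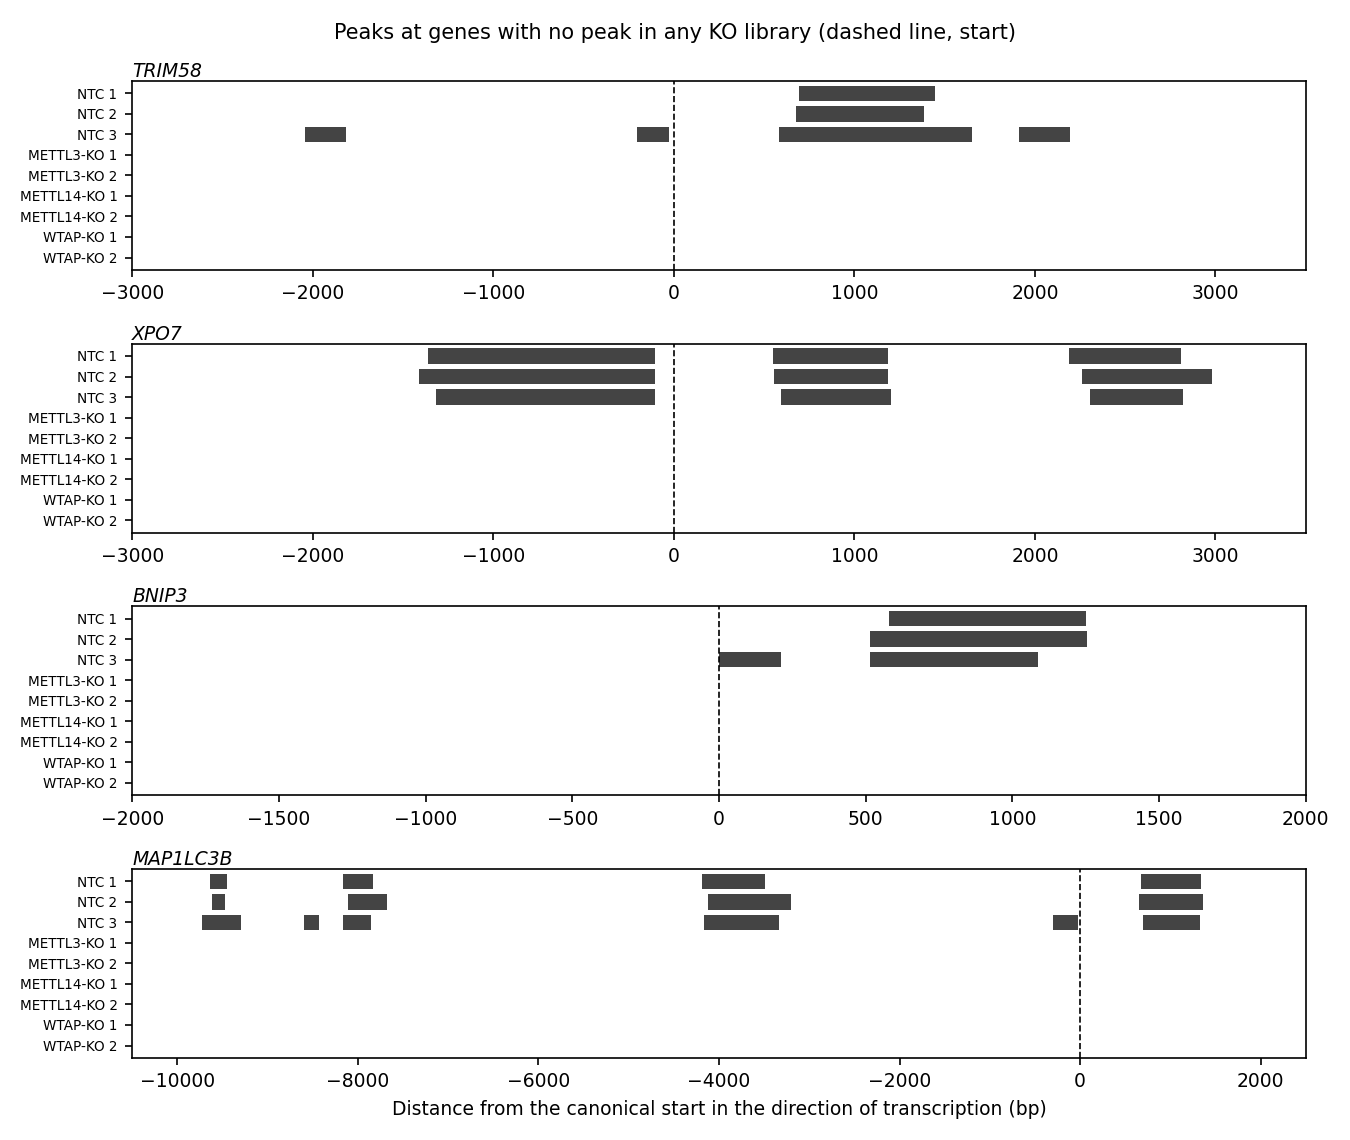
Peaks near the 4 genes that had no peak in any KO library, 1 row per library, plotted by distance (bp) from the canonical start in the direction of transcription; bars are peak spans within 5 kb of any start and do not show signal. The 6 KO rows are empty for each gene, and the XPO7 bars flank the start in all 3 NTC libraries.

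Where a peak was left, it was narrower than in NTC. The 19 largest KO peaks of the members were 173 to 751 bp wide with a median of 238 bp, and the 27 largest NTC peaks were 573 to 1884 bp wide with a median of 1210 bp. All 19 lay inside an NTC peak of the same gene in each of the 3 NTC libraries. Over all genes marked in the 3 NTC libraries, 80.5% of 13405 largest KO peaks did so. Peaks were narrower in the KO lists as a whole, with a median width of 658 to 670 bp in the NTC lists and 329 to 454 bp in the KO lists.

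A difference between the KO groups was tested on its own, as METTL3-KO against the average of the other KO groups. METTL3-KO was higher for 4 of 9 members, beside 29.5% of all tested genes, and these 4 were among the 5 members with a peak in at least 2 KO libraries, where the share over genes was 55.2%. The log2 differences were 3.00 for ATG7 (SE 0.37, adjusted p = 0.00138), 2.59 for FOXO3 (SE 0.45, adjusted p = 0.00631), 2.55 for ATG5 (SE 0.42, adjusted p = 0.00525) and 2.31 for BNIP3L (SE 0.67, adjusted p = 0.0446). For ATG7 METTL14-KO had no peak, and for ATG5 and BNIP3L neither METTL14-KO nor WTAP-KO had one, so these sizes depend on the constant. ATG5 and BNIP3L had a peak in 2 KO libraries through METTL3-KO alone. They could therefore only come out higher in METTL3-KO, and the share of 55.2% holds such genes too. With the constant at 0.1 and 10 times, the difference was 4.67 and 1.32 for ATG7, 5.59 and 0.61 for ATG5, and 5.16 and 0.61 for BNIP3L, where at 10 times ATG5 (adjusted p = 0.130) and BNIP3L (adjusted p = 0.220) were not called. FOXO3, with a peak in every library, had 2.68 and 1.99. GABARAPL2 had a difference of 2.64 that did not pass the threshold (SE 1.17, adjusted p = 0.163) but did so without METTL14-KO replicate 1 (1.48, adjusted p = 0.00502), without METTL14-KO replicate 2 (3.79, adjusted p = 0.000326) and with the constant at 10 times (1.68, adjusted p = 0.0346). BNIP3, MAP1LC3B, TRIM58 and XPO7 had no peak in any of the 3 groups and no difference could be seen at this threshold. ATG7 alone kept its call after centring, and with the values divided by the step ATG7 and ATG5 kept theirs. The call for BNIP3L was lost when any single library other than METTL3-KO replicate 2 was left out, with adjusted p from 0.0657 without METTL3-KO replicate 1 to 0.0998 without WTAP-KO replicate 1. The METTL3-KO lists also held more peaks than the other KO lists, and whether that accounts for the difference was not tested.

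The members were also compared by the sequence before their starts. In the 250 bp before the canonical start, they had 12 CpG sites (TRIM58) to 41 (BNIP3), where the median of 19862 coding promoters was 18 and the quartiles were 7 and 27. All members but ULK1 were marked in all 3 NTC libraries. Among the 8468 promoters of such genes the median was 22 and the quartiles were 15 and 29. FOXO3, marked in all KO libraries, had 37, and MAP1LC3B and XPO7, marked in none, had 33 and 34. The letters CCNCNCCC, which KLF1 and other KLF and SP factors bind, were found on either strand in 8 of 10 members and in 67.6% of all promoters, with 8 matches in ULK1, 7 each in FOXO3 and BNIP3 and none in ATG5 or XPO7; overlapping matches were counted. AGATAA, which the erythroid factor GATA1 binds, was found in 0 of 10 members and in 6.57% of promoters. The E-box CANNTG was found in 8 of 10 members and 56.7% of promoters, and GTAAACA, a FOXO motif, in XPO7 only and 2.06% of promoters. Among the promoters of genes marked in all 3 NTC libraries, CCNCNCCC was found in 75.2%, AGATAA in 4.23%, CANNTG in 51.7% and GTAAACA in 1.44%. A match is a run of letters and not a bound site.

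A list of 50 other genes of autophagy, mitophagy and nuclear expulsion was examined in the same way, and 47 of them could be tested. Of the 50, 27 were marked in all 3 NTC libraries, beside 42.1% of coding genes, and 15 of these had no peak in any KO library, beside 45.8%. These 15 could only come out lower in the test. Every gene counted as higher below had no NTC peak within 1 kb, so it could only come out higher. Taking the KO groups together, 26 of 47 were lower and 10 higher, beside 73% and 14.3% of tested genes. In METTL3-KO 24 were lower and 10 higher, beside 60.9% and 14%. In METTL14-KO 26 were lower and 7 higher, beside 68.8% and 8.38%, and in WTAP-KO 27 were lower and 5 higher, beside 69.7% and 6.81%. By role, the genes marked in every NTC library that had no peak in any KO library were 3 of 3 for nuclear expulsion, 2 of 3 for transcription factors, 3 of 5 for mitophagy receptors, 3 of 5 for the PI3K complex, which makes the lipid that recruits later autophagy proteins, 2 of 4 for conjugation, 1 of 2 for membrane supply, 1 of 2 for cargo adaptors, 0 of 2 for the initiation kinase complex and 0 of 1 for the ATG8 family. These are few genes per role, beside 45.8% over all coding genes marked in the 3 NTC libraries. The number of marked genes was 30 to 34 in the NTC libraries, 28 and 29 in METTL3-KO, 14 and 21 in METTL14-KO, and 9 and 13 in WTAP-KO.

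PINK1, the kinase that marks damaged mitochondria, had the highest NTC mean of the list and was the only 1 of the 27 that kept a peak in all 6 KO libraries. Its signal was 11435, 15009 and 17888 in NTC, 4342 and 3276 in METTL3-KO, 2672 and 1098 in METTL14-KO, and 1585 and 2506 in WTAP-KO. All KO values lay below all NTC values, with a log2 change of -2.62 for all KO groups (SE 0.35, adjusted p = 0.000405). AMBRA1, which links the kinase and lipid complexes, had 8891, 9078 and 9935 in NTC and a peak in 3 KO libraries, up to 1748. BCL2L13, a mitophagy receptor, had 12832, 7608 and 9850 in NTC and a peak in 4 KO libraries, up to 2211, with none in WTAP-KO.

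The other genes of the list with a peak in all 6 KO libraries were PIK3R4, UVRAG, ATG3, ATG4C, WIPI1, OPTN and TAX1BP1. ATG3, WIPI1 and TAX1BP1 had a peak in 2 of 3 NTC libraries and were not called for all KO groups together (adjusted p = 0.768 for ATG3, adjusted p = 0.806 for WIPI1 and adjusted p = 0.796 for TAX1BP1). WIPI1 had 13156 and 16203, and TAX1BP1 18997 and 21805, in the NTC libraries where they had a peak. PIK3R4, UVRAG, ATG4C and OPTN had no NTC peak within 1 kb, and their KO values ran from 210 to 9960. For UVRAG all 3 NTC libraries did have a peak within 5 kb, with a mean signal of 5095. For ATG4C 1 NTC library had such a peak, with a mean of 108 over the 3 libraries, and PIK3R4 and OPTN had none. Some other genes of the list without an NTC peak within 1 kb also had NTC peaks within 5 kb, with a mean signal up to 6731. The lists end at a width of 2000 bp, and whether a wider NTC domain stood at these starts was not tested.

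**Figure D4:**
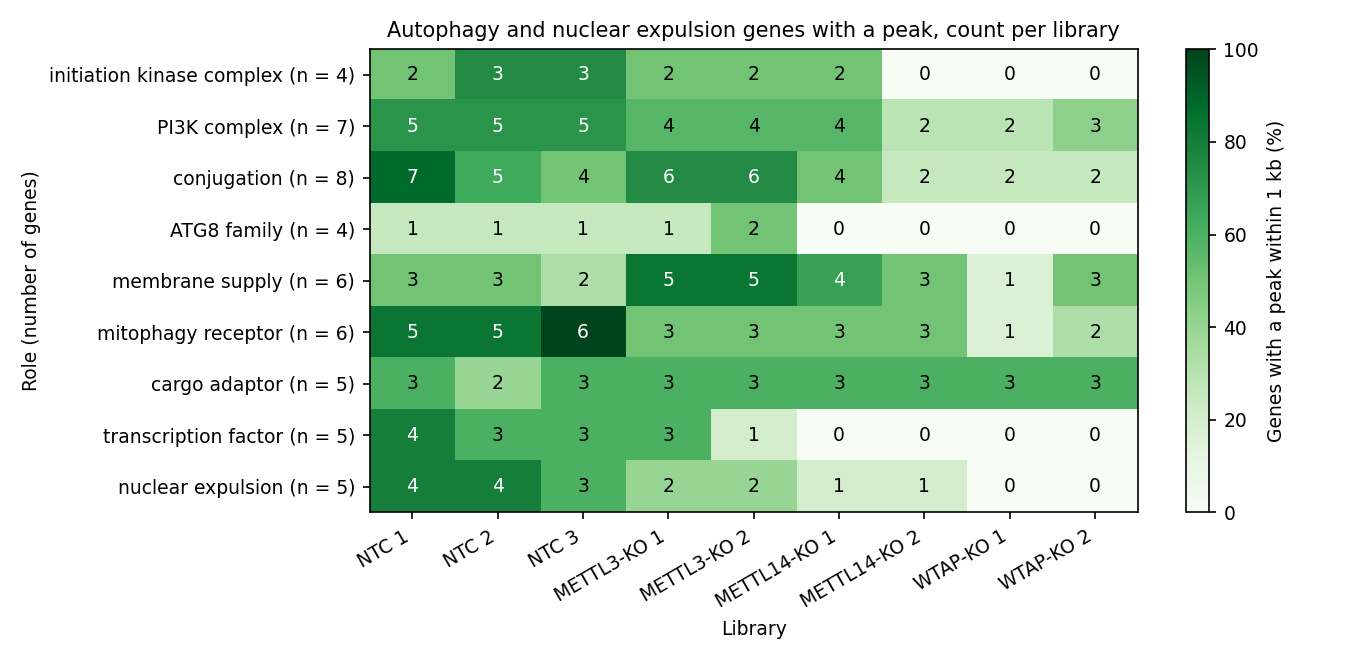
Number of genes with a peak within 1 kb of a start in each library (cell numbers), by role, for the 50 further genes of autophagy, mitophagy and nuclear expulsion; shading is the percent of the genes in the role. Counts fall from NTC to the METTL14-KO and WTAP-KO libraries for transcription factors and nuclear expulsion genes, and also for mitophagy receptors, the PI3K complex and the ATG8 family. They do not fall for cargo adaptors, with 2 or 3 in NTC and 3 in each of those KO libraries. For membrane supply they are 2 or 3 in NTC and 1 to 4 in those KO libraries. For conjugation and the initiation kinase complex, METTL14-KO replicate 1 equals the lowest NTC count and the other METTL14-KO and WTAP-KO libraries lie below it.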

How the data were processed

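H3K4me3 CUT&RUN peak lists of 9 HEL libraries were used, grouped by the genotype in the sample labels. The authors aligned paired reads with Bowtie to hg19 and to the yeast genome (sacCer3) of a spike-in, removed duplicates with Picard, calibrated each library to the spike-in and called peaks per library; tool versions are not given in the sources used here. The deposited lists hold the position of each peak and its signal on the calibrated scale. These values are not counts, and count models were therefore not applied. Sequencing depth is unknown, and precision is limited by how few libraries there are.

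Starts in the lists were read as counted from 0. Peaks were assigned to every coding gene of GENCODE (lifted to GRCh37, the build of hg19) with an annotated start within 1 kb, and within 5 kb beside it. The 2 peaks on the mitochondrial chromosome were left out. The largest signal per gene and library was tested with limma 3.58.1 (R 4.3.3, trend option) on log2(signal + 30.1), the constant being the smallest gene signal, for genes with a peak in at least 2 libraries, with 4 groups in 1 model and Benjamini-Hochberg adjustment over 12037 genes at 0.05. This scale understates changes of weak genes. The fitting step was tested on simulated data. A step is the largest number found of which at least 99% of the values below a list's median are whole multiples within 0.05. Over whole lists this share was 99.0% to 100%.

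The 10 members and all gene lists were chosen with earlier results of these data known. All members are named, and of the wider list the 5 genes of highest NTC mean and those with a peak in all 6 KO libraries. Alternatives were the 5 kb window, the gene-level start, the sum of peaks, peaks at or above the NTC median (2095), division by the step, the constant at 0.1 and 10 times, a peak in at least 1 or 4 libraries, centring on genes marked in all 9 libraries, only NTC and 1 KO group, the replicate block and leaving out each library. Counts over tested genes with a peak in at least 2 KO libraries were added after seeing the data. Replicate numbers did not pair the libraries. Sequences were read from GRCh37, and motifs were searched in the 250 bp before each canonical start. Tables and figures were made in Python 3.11.15 (pandas 2.3.3, numpy 2.4.6, matplotlib 3.10.9). The results of 3 further marker lists are not reported here.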

Additional observations from a re-analysis of the deposited data

Results flagged for a closer look

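Of the 9 tested members, 4 differed between KO groups by a test of the difference itself, with METTL3-KO higher than the average of the other KO groups. The log2 difference was 3.00 for ATG7, 2.59 for FOXO3, 2.55 for ATG5 and 2.31 for BNIP3L, with 2 libraries per group. For ATG7 the METTL14-KO libraries had no peak, and for ATG5 and BNIP3L neither METTL14-KO nor WTAP-KO libraries had one, so the size of these 3 differences depends on the constant added before the log. With KO peaks in METTL3-KO alone, ATG5 and BNIP3L could only come out higher there. With the constant at 10 times, ATG7 had 1.32 and kept its call, while ATG5 (adjusted p = 0.130 by limma) and BNIP3L (adjusted p = 0.220) lost theirs. The cause was not tested.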

How the results depend on the processing

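Over 831 alternative values of the members' changes, 781 kept both direction and call, 34 lost the call, 14 gained it and 2 turned direction. The 831 include values of BNIP3, MAP1LC3B, TRIM58 and XPO7, which had no KO peak. Except after centring the direction of these genes could only stay lower, so their part of the 781 is not a check. Their calls could still be lost. With peaks at or above the NTC median BNIP3 was not called in METTL3-KO, METTL14-KO or WTAP-KO (-0.69 in each). Both values that turned direction were GABARAPL2 after centring on genes marked in all 9 libraries, 0.31 in METTL3-KO and 0.98 in WTAP-KO. Requiring a peak in at least 4 libraries removes BNIP3, MAP1LC3B, TRIM58 and XPO7 by its construction and left 5, 4, 5 and 4 members lower in all KO, METTL3-KO, METTL14-KO and WTAP-KO, and 5675, 4532, 5404 and 5319 coding genes called, where the main counts were 10499, 9024, 9290 and 9206. With peaks at or above the NTC median 6117 coding genes were called in WTAP-KO. Members higher in METTL3-KO than in the other KO groups, 4 in all, were 1 after centring, 2 after division by the step and 1, GABARAPL2, with peaks at or above the NTC median, alternatives applied to this comparison after seeing the data. Leaving out a library gave 3 to 4 for that count, 8 to 9 for members lower in all KO, METTL3-KO and WTAP-KO, and 9 in METTL14-KO. Centring moved the share of lower among called genes from 89.1% to 76.2% in METTL14-KO and from 91.1% to 76.5% in WTAP-KO, and the median log2 change for all KO groups from -5.30 to -2.46.

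Same-numbered libraries of different groups showed little shared deviation (mean r = 0.0059 over 12 pairs, from -0.058 to 0.095, across genes), so the numbers were not taken as pairs. In a group of 2 libraries the deviations mirror each other, so the 12 pairs are not separate checks. With the replicate block 8 members were lower in all KO groups, GABARAPL2 having lost its call (-3.18, adjusted p = 0.0668 by limma), and 3 were higher in METTL3-KO than in the other KO groups, BNIP3L having lost its call (2.31, adjusted p = 0.101).

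The lists hold no value below about 30, a scale on which the lowest listed peak was more steps in the KO lists than in the NTC lists, and no peak wider than 2000 bp. A missing peak is therefore not a missing mark.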
